A study of Rattus norvegicus with 8 samples.

Results

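The circular RNAs (circRNAs) described here come from 2 loci of the rat genome that are probably the genes Rims2 and Rims1. They were chosen by position on the build Rnor_6.0: every circRNA on the plus strand of chromosome 7 between 78122159 and 78574310, and every circRNA on the minus strand of chromosome 9 between 28442925 and 28732920. This gave 77 circRNAs at the chromosome 7 locus and 74 at the chromosome 9 locus, 151 of the 51995 in the table. The table names each circRNA by position and carries no gene names, and an annotation of Rnor_6.0 was not used here. In the RefSeq gene table used for names, whose assembly is GRCr8, Rims2 lies on chromosome 7 between Dcaf13 and Dcstamp and Rims1 lies on chromosome 9 between Kcnq5 and Ppp1r14bl. Positions were not converted between assemblies, so the names remain probable and the loci are called by chromosome below.

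As background, a circRNA forms when the splicing machinery joins the donor site at the end of an exon back to the acceptor site at the start of the same or an earlier exon. The closed molecule has no free ends and is resistant to exonucleases, and circRNAs are known to be plentiful in brain, many of them from genes of the synapse. Rims1 and Rims2 encode RIM proteins, scaffolds of the presynaptic active zone that bind the vesicle GTPase Rab3 and the priming factor Munc13 and help place calcium channels near the sites of release. On the plus strand the genomic start of a circRNA is its acceptor side and the genomic end its donor side, and on the minus strand the sides are exchanged.

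The study asked which circRNAs differ in rat cortex after moderate traumatic brain injury (mTBI). It has 4 mTBI samples, ipsilateral cortex around the injury taken 24 h after it, and 4 sham samples from the matching cortical site, all from animals perfused with saline. The strain, like sex and age, is not given in the sources used here. Levels are in RPM, back-splice junction reads scaled to the size of the library. Each level counts 1 junction, so levels of circRNAs of different length can be set side by side. All circRNAs together summed to 4966 to 5874 RPM per library, with 21508 to 23713 circRNAs listed above 0. The smallest listed value of each library is taken as 2 reads. The spacing of the values fits this reading without showing it. On that reading the chromosome 7 locus held 1478 to 1761 junction reads per library and the chromosome 9 locus 1751 to 2139. The labelled tissue could not be checked against marker genes, because the rows carry no gene names. In bulk tissue, fewer cells of a type and less RNA per cell cannot be told apart.

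Both loci were among the richest in the cortex. With a mean of 25.5 RPM, the chromosome 9 locus was 14th by summed level among 16050 loci, where circRNAs on the same strand were put in a locus when they had a start or end position in common. The chromosome 7 locus, at 21.95 RPM, was the 17th. By number of circRNAs the chromosome 7 locus was 3rd and the chromosome 9 locus tied at 4th, with 74 circRNAs. All 77 circRNAs of the first and all 74 of the second were linked to each other through shared ends, so that each window was a single locus in this sense.

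At the chromosome 7 locus, 30 acceptor positions and 24 donor positions made up the 77 circRNAs, out of 397 pairs in which the start lies before the end. These pairs were counted at any distance, while no listed circRNA of the locus spanned more than 98831 bases. One donor dominated. The position 78520474 was the donor of 11 circRNAs, which together stood at 12.7 RPM or 57.7% of the locus. The next donors were 78375555, with 8 circRNAs and 17.3% of the locus, and 78247197, with 4 circRNAs and 5.48%. Acceptors were used more evenly. The acceptor at 78462288 carried 29.5% of the locus with 2 circRNAs, that at 78347306 carried 15.8% with 7, and that at 78432827 carried 13.8% with 4.

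Of the reads at the leading donor of chromosome 7, 51.0% joined to the acceptor at 78462288, 21.3% to that at 78432827 and 10.8% to that at 78453734. Some of its acceptors lay very close together. The positions 78482254, 78482370 and 78482373 lie within 116 and then 3 bases of each other, and their circRNAs to this donor stood at 0.930, 0.747 and 0.332 RPM on average. The pair 3 bases apart was listed in all 8 libraries, with the upstream position above the other in each. Farther upstream, the acceptors at 78347124 and 78347306 lie 182 bases apart and both joined to the donor at 78375555, at 1.10 and 2.45 RPM.

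**Figure D1:**
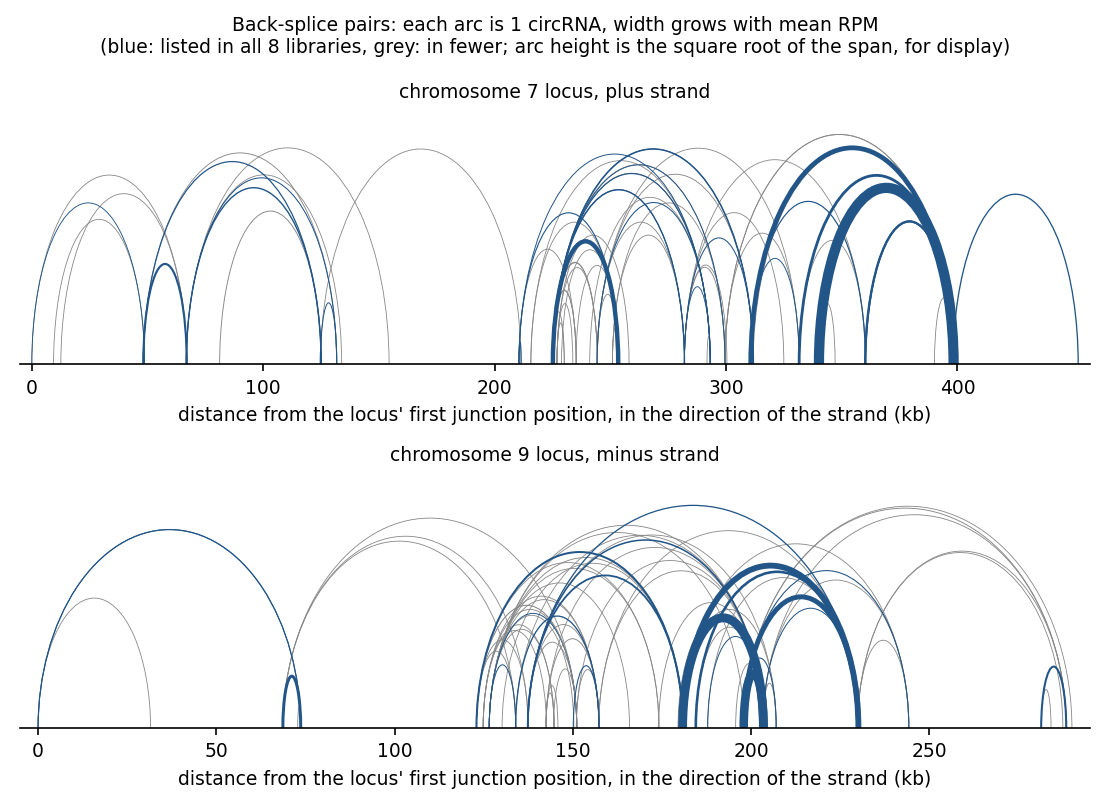
Back-splice pairs of both loci, with the distance in kb from the first junction position in the direction of the strand on the horizontal axis. Each arc is 1 circRNA, its width grows with the mean RPM over 8 libraries, and blue arcs were listed in all 8 libraries. At the chromosome 7 locus the widest arcs meet at 1 donor, and at the chromosome 9 locus 4 wide arcs connect 2 acceptors with 2 donors.

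The chromosome 9 locus had 23 donor and 26 acceptor positions, with 402 pairs counted in the same way. Its longest listed span was 92749 bases. Its reads sat on a pair of donors. The position 28529457 was the donor of 13 circRNAs with 45.5% of the locus, and 28502814 of 8 circRNAs with 31.1%. Next came 28659251, with 4 circRNAs and 7.08%. On the acceptor side, 28552133 carried 35.4% and 28534987 carried 33.3%, while 28664255 and 28595563 carried 5.90% each. As at chromosome 7, a pair of acceptors lay 3 bases apart, 28732917 and 28732920, and those joined to the donor at 28659251 stood at 0.0615 and 0.256 RPM.

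The 2 leading donors and the 2 leading acceptors of the chromosome 9 locus were joined in all 4 combinations, and these made up 63.8% to 72.1% of the locus in every library. From the donor at 28529457, the acceptor at 28552133 rather than 28534987 was taken by 51.4% ± 2.41 of the reads of the pair in sham and 51.2% ± 4.51 in mTBI (SD, n = 4 each). From the donor at 28502814, the same acceptor was taken by 56.9% ± 3.18 in sham and 53.0% ± 2.88 in mTBI (SD, n = 4 each). Both donors were joined to both acceptors in every library, with the first acceptor at 46.0% to 55.9% from the one donor and 49.9% to 59.7% from the other. The log2 odds ratio between donor and acceptor choice ran from -0.63 to 0.17 over the 8 libraries, with a counting error of 0.16 to 0.18 in each, and the groups overlapped. This grid was chosen for description after the values were seen, and no test was run on it.

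Few circRNAs carried most of each locus. At chromosome 7, 5 circRNAs averaged at least 1 RPM and made up 64.1% of the locus, and at chromosome 9, 6 such circRNAs made up 77.5%. The 30 circRNAs of chromosome 7 listed in all 8 libraries held 96.1% of its RPM, and the 21 of chromosome 9 held 95.9%. Another 16 and 23 circRNAs were listed in a single library each, with 0.368% and 0.501% of the RPM. Spans, the genomic distance between the joined ends, ran from 210 to 98831 bases at chromosome 7 and from 841 to 92749 bases at chromosome 9, with medians of 38220 and 31862 bases. Spans over 50 kb were seen for 30 and 24 circRNAs. The circRNA caller is not given, so whether it set a limit on span is not known here. These distances include introns and are not the lengths of the circular molecules, which the table does not give.

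The highest circRNA of the chromosome 7 locus joined 78462288 to 78520474 and spanned 58.2 kb. Its sham libraries read 7.05, 6.76, 6.82 and 6.69 RPM, and its mTBI libraries 4.88, 5.93, 6.87 and 6.70 RPM. The low values were those of mTBI replicates 1 and 2, the libraries with the lowest summed circRNA level, and the groups overlapped (log2 change -0.18, SE 0.13, limma adjusted p = 0.973). It was 69th among all 51995 circRNAs by mean level, at 6.46 RPM.

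The circRNA second in level at this locus, from 78432827 to 78520474 (87.6 kb), shared the donor of the first. The sham values were 2.998, 2.62, 3.07 and 2.86 RPM. The mTBI values were 2.41, 2.60, 2.38 and 2.66 RPM, and only replicate 4 of these reached into the sham range (log2 change -0.20, SE 0.14, limma adjusted p = 0.973). For the circRNA next in level, from 78347306 to 78375555 (28.2 kb), the sham values of 2.87, 2.66, 2.06 and 2.55 RPM overlapped the mTBI values of 2.14, 2.43, 2.57 and 2.36 RPM. Below these came the circRNA from 78453734 to 78520474 (66.7 kb), with a sham mean of 1.44 ± 0.0790 RPM and an mTBI mean of 1.29 ± 0.203 RPM (SD, n = 4 each). For that from 78347124 to 78375555 (28.4 kb) the means were 1.20 ± 0.132 and 0.9998 ± 0.136 RPM, and for that from 78482254 to 78520474 (38.2 kb) 0.989 ± 0.1402 and 0.871 ± 0.138 RPM (SD, n = 4 each). Over the 8 libraries the top circRNA stood apart, at 4.88 RPM or more against 3.07 RPM or less for the 87.6 kb circRNA. The 87.6 kb and 28.2 kb circRNAs overlapped, as did the 66.7 kb, 28.4 kb and 38.2 kb circRNAs with each other, while the 28.2 kb and 66.7 kb circRNAs did not.

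The chromosome 9 locus was led by 2 circRNAs of similar level. For the one from 28529457 to 28552133 (22.7 kb) the sham values were 5.59, 6.63, 5.58 and 5.53 RPM and the mTBI values 5.28, 4.45, 5.43 and 5.81 RPM. For the one from 28529457 to 28534987 (5.5 kb), with the same donor, they were 5.05, 7.18, 4.84 and 5.25 RPM (sham) and 6.21, 4.59, 4.65 and 4.58 RPM (mTBI). Sham replicate 2 was highest for both, and the groups overlapped for both (limma adjusted p = 0.973 and 0.980). By mean level they were 89th and 96th of all circRNAs.

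Next at this locus, the circRNA from 28502814 to 28552133 (49.3 kb) was the only one of the 6 with the highest mean whose groups did not overlap. Sham libraries read 3.80, 3.74, 4.10 and 3.58 RPM and mTBI libraries 3.33, 2.66, 3.18 and 3.06 RPM, the highest mTBI value being below the lowest sham value. The log2 change was -0.32 (SE 0.14) and did not pass over the whole table (limma unadjusted p = 0.0318, adjusted p = 0.973). The circRNA from 28502814 to 28534987 (32.2 kb), has the same donor and the other leading acceptor. Its sham values of 3.45, 2.66, 2.77 and 2.68 RPM overlapped its mTBI values of 2.53, 2.68, 2.90 and 2.71 RPM. Whether these 2 circRNAs differed from each other in their change was not tested as a pair.

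Lower in level were the circRNAs from 28659251 to 28664255 (5.0 kb), with means of 1.59 ± 0.251 RPM (sham) and 1.37 ± 0.343 RPM (mTBI), and from 28502814 to 28548437 (45.6 kb), with means of 1.22 ± 0.183 and 1.23 ± 0.244 RPM (SD, n = 4 each). Over the 8 libraries these 6 circRNAs fell into 3 pairs of overlapping level. They were the 22.7 kb and 5.5 kb circRNAs, the 49.3 kb and 32.2 kb circRNAs, and the 5.0 kb and 45.6 kb circRNAs, with no overlap from one pair to the next.

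**Figure D2:**
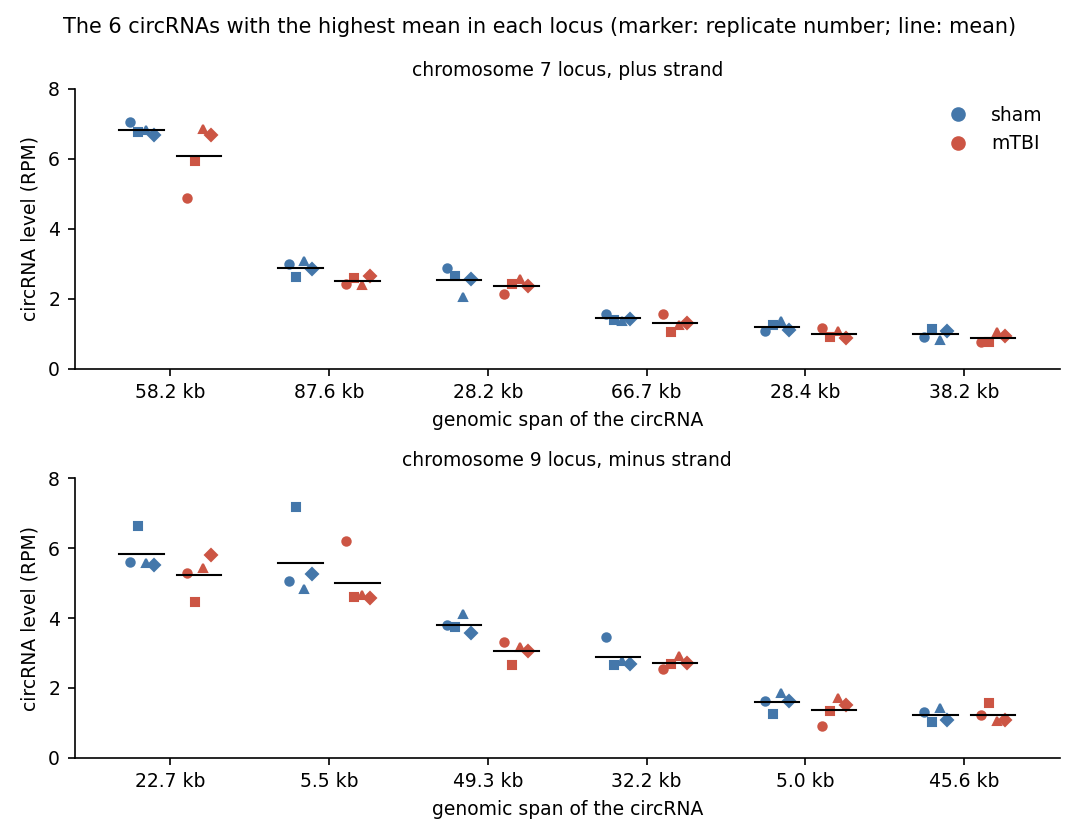
Level in RPM of the 6 circRNAs with the highest mean at each locus, labelled by genomic span. Each point is 1 library (blue sham, red mTBI, marker shape the replicate number) and each line a group mean of 4. The 49.3 kb circRNA of chromosome 9 is the one whose mTBI values, 2.66 to 3.33 RPM, all lie below its sham values, 3.58 to 4.10 RPM.

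The loci were then compared between injured and sham cortex as sums over all their circRNAs. The chromosome 9 total was 27.6, 28.0, 26.9 and 25.4 RPM in the sham libraries and 24.6, 22.5, 24.9 and 24.0 RPM in the mTBI libraries. The groups did not overlap, with mTBI the lower, as was the case for 1.63% of the 7776 loci tested (1.36% did not overlap with mTBI the higher). The log2 change of -0.17 (SE 0.089) did not pass (limma unadjusted p = 0.0702, adjusted p = 0.951), where 0.0129% of loci passed and 5.21% had an unadjusted p under 0.05 (limma). The unadjusted p depended on the fit, at 0.00595 with limma voom, 0.0284 with robust shrinkage and 0.0397 with a mean of at least 10 reads. Without the variance trend it was 0.385 (limma). None of these passed (limma adjusted p = 0.740, 0.916, 0.890 and 0.997). As a share of all circRNA RPM, the locus held 0.498% ± 0.0373 in sham and 0.451% ± 0.0356 in mTBI (SD, n = 4 each), with 1 mTBI library, at 0.496%, inside the sham range of 0.453% to 0.545%. The summed circRNA level was 4966 and 5002 RPM in mTBI replicates 1 and 2 and 5148 to 5874 RPM in the other 6 libraries. With libraries centred on their median over loci, the log2 change was -0.11 (SE 0.074, limma unadjusted p = 0.141, adjusted p = 0.890). That centring moved the median log2 change of all loci from -0.014 to 0.042. Centring on circRNAs moved the median over circRNAs the other way, from -0.017 to -0.048. The part of the summed level in the result was not tested.

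The chromosome 7 total was 22.55, 22.57, 22.57 and 22.57 RPM in the sham libraries and 19.1, 20.5, 22.9 and 22.9 RPM in the mTBI libraries. mTBI replicates 1 and 2 lay below the sham libraries and replicates 3 and 4 above them (log2 change -0.08, SE 0.093, limma adjusted p = 0.979). The 4 sham totals differed by less than counting reads allows on average, with an SD of 0.0117 RPM where the number of reads alone would give 0.541 RPM. Among the 67 loci with a mean of at least 10 RPM it had the smallest sham coefficient of variation, 0.0517%, before the next at 1.14% and a median of 7.38%. Its single circRNAs were not that even in sham, as the 28.2 kb circRNA shows with 2.06 to 2.87 RPM. The SE of the fit combines the spread of this locus in both groups with that of loci of similar level. Without mTBI replicate 1 the log2 change was -0.032.

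**Figure D3:**
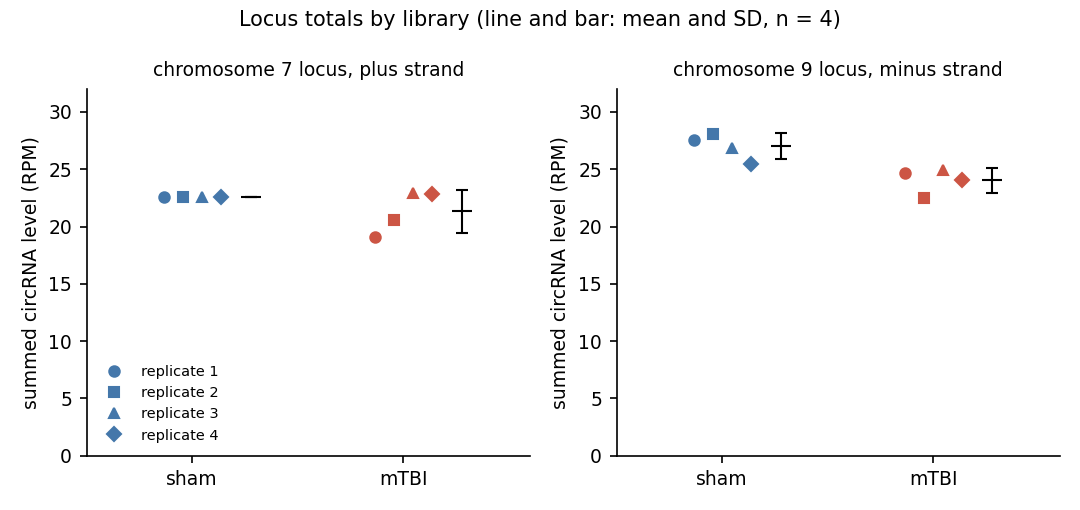
Summed level in RPM of all circRNAs at the chromosome 7 locus (left) and the chromosome 9 locus (right), by library, from 0. Points are libraries with the replicate number as marker, and the line with its bar is the mean and SD of 4. The chromosome 9 values of mTBI, up to 24.9 RPM, lie below those of sham, from 25.4 RPM, while at chromosome 7 the mTBI values lie on both sides of the narrow sham group.

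Whether the loci changed by different amounts was tested with the log2 ratio of the chromosome 9 to the chromosome 7 total. It was 0.26 ± 0.062 in sham and 0.17 ± 0.13 in mTBI (SD, n = 4 each; exact permutation test, two-sided, p = 0.343, adjusted p = 0.514). The sham ratios were 0.29, 0.31, 0.25 and 0.17 and the mTBI ratios 0.37, 0.13, 0.12 and 0.072, with mTBI replicate 1 the highest of all 8 and the other mTBI libraries below every sham library. The difference of -0.083 was -0.15 without mTBI replicate 1 (exact permutation test, two-sided, p = 0.0571, adjusted p = 0.386) and -0.049 without mTBI replicate 4, so its size depended on single libraries. This is one of 9 exact permutation tests made on the pair of loci, adjusted together by the Benjamini-Hochberg method. The smallest p that 4 libraries against 4 can give is 0.0286. Without mTBI replicate 1 the smallest possible p is 0.0571, so the value given there is at its floor. That library was singled out with the values in view.

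Across single circRNAs, 44 of the 77 at chromosome 7 and 37 of the 74 at chromosome 9 were listed in at least 4 libraries and were tested, with p-values adjusted over all 20174 circRNAs tested in the table. None of the 81 passed an adjusted p of 0.05 (limma, smallest adjusted p = 0.973), where 0.0248% of all circRNAs tested did. At an unadjusted p under 0.05 there were 2 at chromosome 7 and 4 at chromosome 9, or 7.41% of the 81, beside 4.68% of all tested (limma). Of these 6, 3 were not listed in every library. At chromosome 9, 2 of these were listed in all sham but not all mTBI libraries. The other, at chromosome 7, was listed in all mTBI but not all sham libraries. For all of these the filter favoured a difference. Among circRNAs listed in all 8 libraries, a restriction added after seeing the data, the count was 3 of 51, or 5.88%, beside 3.90% of 9082 (limma). The groups did not overlap for 3 of the 81, 1 lower and 2 higher after mTBI, or 3.70%, beside 2.81% of all tested (1.41% lower and 1.39% higher). Of the tested circRNAs of chromosome 9, 28 had a log2 change below 0 and 9 above, with a median of -0.10. At chromosome 7, 20 lay below 0 and 24 above, with a median of 0.036. Over all circRNAs tested the median was -0.017, and 52.0% lay below 0. Among those listed in all 8 libraries, 17 of 21 at chromosome 9 and 16 of 30 at chromosome 7 lay below 0, beside 52.8% of 9082 in the whole table.

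**Figure D4:**
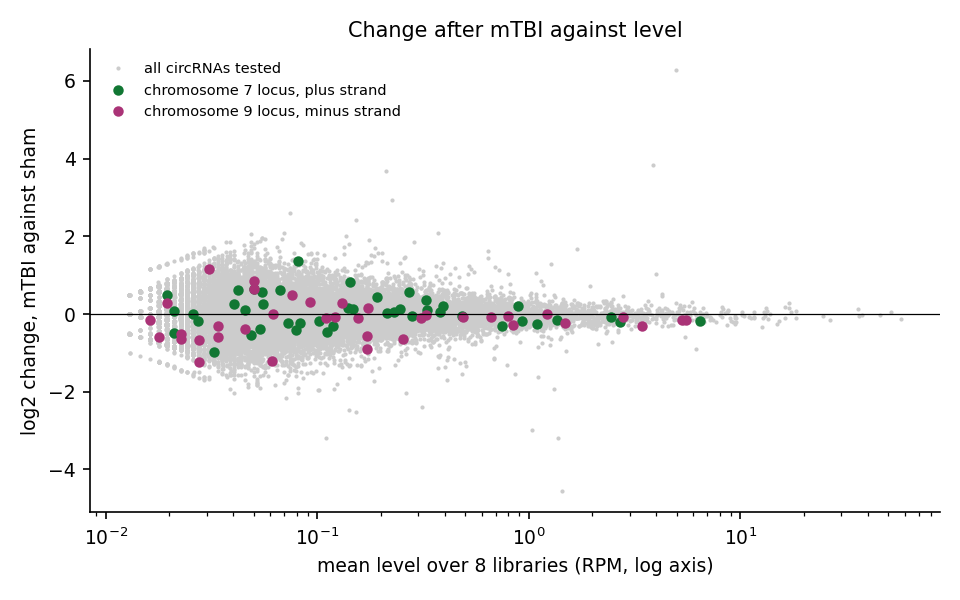
The log2 change after mTBI against the mean level over 8 libraries in RPM (log axis) for all 20174 circRNAs tested (grey), with the 44 of the chromosome 7 locus in green and the 37 of the chromosome 9 locus in purple. The members above 1 RPM lie close to 0, between -0.32 and 0.01, and the wider changes are found at low levels.

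The circRNAs with the smallest p were mostly of low level. At chromosome 7 the shortest of the locus, from 78188914 to 78189124, a span of 210 bases, was listed at 0.0258, 0, 0.0647 and 0.0516 RPM among sham and 0.0903, 0.167, 0.182 and 0.0649 RPM among mTBI libraries. The lowest mTBI value lay just above the highest sham value, and both stand for 5 reads, so the groups touch in reads (log2 change 1.37, SE 0.53). This circRNA passed the filter through its mTBI libraries, where it was the higher, so its p is not given. For the circRNA from 78404132 to 78433970 the sham values were 0.0905, 0.157, 0.0776 and 0.0645 RPM and the mTBI values 0.142, 0.219, 0.182 and 0.208 RPM, overlapping through sham replicate 2 (limma unadjusted p = 0.0344). The other circRNA without overlap, from 78122159 to 78170856, was picked out after its values were seen. It was listed at 0.0259 to 0.0388 RPM among sham and 0.0516 to 0.116 RPM among mTBI libraries, a few reads each (limma unadjusted p = 0.233). The circRNA from 78170329 to 78247197 had the largest coefficient of variation, 42.3%, among the 15 of the locus averaging at least 20 reads, with means of 0.207 ± 0.0454 RPM (sham) and 0.334 ± 0.134 RPM (mTBI) (SD, n = 4 each). For those 15 the median coefficient of variation over 8 libraries was 18.3%, where counting alone gives 13.2%.

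On the lower side at chromosome 7 stood the circRNAs from 78482370 to 78520474 and from 78347124 to 78375555. Both were listed in all 8 libraries, with unadjusted p of 0.159 and 0.164 (limma). With them stood the longest circRNA of the locus, from 78421643 to 78520474. The longest was listed at 0.0646, 0.105 and 0.0388 RPM in sham replicates 1 to 3 and at 0 in replicate 4. In mTBI it was listed at 0.0516 RPM in replicate 1 and at 0 in the others, so the groups overlapped. It met the filter mostly through sham libraries, where it was the higher, so its p is not given.

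At chromosome 9 the circRNA from 28659251 to 28732920, which reaches the edge of the window, read 0.439, 0.197, 0.246 and 0.3996 RPM among sham and 0.168, 0.141, 0.287 and 0.169 RPM among mTBI libraries (log2 change -0.65, SE 0.32, limma unadjusted p = 0.0491). Of the mTBI libraries, replicate 3 alone lay inside the sham range. The circRNA from 28502814 to 28545101 was listed at 0.0258 to 0.0776 RPM in all sham libraries, and in mTBI at 0.0260 RPM in replicate 4 and at 0 in the others. It passed the filter through its sham libraries, where it was the higher, so its p is not given. The remaining one with an unadjusted p under 0.05, from 28444521 to 28534987, likewise met the filter through 4 sham libraries, beside 2 of mTBI, and was picked out after its values were seen, with means of 0.0905 ± 0.0482 RPM (sham) and 0.0324 ± 0.0491 RPM (mTBI) and overlapping groups (SD, n = 4 each). Among the 9 with a log2 change above 0, the 3 with the smallest p had means of 0.0308 to 0.0502 RPM, and none passed. They ran from 28529457 to 28548437, 28598928 to 28609952 and 28525877 to 28552133. Each was listed in more mTBI than sham libraries, so the filter favoured a difference and their p is not given. Sham and mTBI values overlapped for each of these 3. The circRNA from 28575571 to 28598974 varied most among the 12 averaging at least 20 reads, with a coefficient of variation of 35.2%, with means of 0.324 ± 0.0939 RPM (sham) and 0.330 ± 0.149 RPM (mTBI) (SD, n = 4 each). The shortest of the locus, spanning 841 bases, was listed at 0.0772 RPM in mTBI replicate 2 only.

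Some circRNAs were listed in 1 group only, and all of these were of low level. At chromosome 7, 13 were listed in sham libraries only, at up to 0.104 RPM, and 11 in mTBI libraries only, at up to 0.0649 RPM. At chromosome 9 the numbers were 15, at up to 0.0646 RPM, and 13, at up to 0.154 RPM. These include the 16 circRNAs of chromosome 7 and 23 of chromosome 9 listed in a single library, which can only be in 1 group. The share of such circRNAs in the whole table was not counted, so whether these numbers are unusual cannot be told. The number listed per library was 46, 44, 46 and 45 in sham and 54, 44, 44 and 47 in mTBI at chromosome 7 (exact permutation test, two-sided, p = 0.714, adjusted p = 0.8286). At chromosome 9 it was 41, 47, 38 and 42 in sham and 38, 32, 36 and 40 in mTBI (exact permutation test, two-sided, p = 0.0857, adjusted p = 0.257). Counting only values above 4 reads, the differences turned, from 2.0 to -1.25 circRNAs at chromosome 7 and from -5.5 to 1.25 at chromosome 9, so the direction depended on the circRNAs listed at 2 to 4 reads. Without mTBI replicate 1, which listed 54, the difference at chromosome 7 was -0.25.

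The makeup of each locus was compared as well. At chromosome 7 the highest circRNA held 30.3% ± 0.714 of the locus in sham and 28.4% ± 1.96 in mTBI (SD, n = 4 each; exact permutation test, two-sided, p = 0.0857, adjusted p = 0.257). Without mTBI replicate 1, at 25.6%, the difference went from -1.84 to -0.891 percentage points. At chromosome 9 the highest held 21.6% ± 1.49 and 21.8% ± 1.83 (SD, n = 4 each; exact permutation test, two-sided, p = 0.8286, adjusted p = 0.8286). The mean span weighted by RPM was 52190 ± 813 bases in sham and 51343 ± 444 bases in mTBI at chromosome 7 (exact permutation test, two-sided, p = 0.143, adjusted p = 0.321). That difference of -847 bases was -542 without sham replicate 3. At chromosome 9 the mean span was 28029 ± 1194 and 27389 ± 248 bases (exact permutation test, two-sided, p = 0.343, adjusted p = 0.514), and the difference of -640 bases was -286 without sham replicate 3, -369 without sham replicate 1 and -1153 without sham replicate 2. The circRNAs within a locus did not pass a test of unequal change, at chromosome 7 (limma diffSplice adjusted p = 0.999965) or chromosome 9 (0.974), where 0.0912% of 3289 loci did.

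The share of the leading start of chromosome 7, 78462288, was the planned measure of how ends were used. It was 30.3% ± 0.653 in sham and 28.4% ± 1.96 in mTBI, with overlap (SD, n = 4 each; exact permutation test, two-sided, p = 0.0857, adjusted p = 0.257), and the difference of -1.90 percentage points was -0.948 without mTBI replicate 1. Beside the highest circRNA of the locus, this start had only a circRNA listed in sham replicate 4, at 0.0516 RPM. Among the 9 tests, this one is therefore nearly the same as that of the highest circRNA. After seeing the data, the leading donor, 78520474, was followed in place of the start. Its share was 60.2%, 59.9%, 59.3% and 58.8% of the locus in sham and 54.5%, 56.5%, 57.0% and 54.9% in mTBI. The groups did not overlap, and the means were 59.5% ± 0.602 and 55.7% ± 1.25 (SD, n = 4 each). The exact permutation test gave p = 0.0286, the smallest it can give, and an adjusted p of 0.257 with the donor in place of the leading start among the 9 tests. As the donor was picked with the values in view, this p is no independent evidence. In RPM the circRNAs of this donor stood at 13.6, 13.5, 13.4 and 13.3 in sham and at 10.4, 11.6, 13.1 and 12.5 in mTBI. The donor at 78375555 had 17.4% ± 0.925 in sham and 17.3% ± 1.63 in mTBI, and that at 78247197 had 4.97% ± 0.307 and 5.98% ± 0.672 (SD, n = 4 each), with overlap for both and no test. Groups were also apart at low-level donors of this locus. The donor at 78453775 held 0.401% to 0.742% in sham and 0.135% to 0.398% in mTBI. That at 78170856 held 0.115% to 0.172% in sham and 0.227% to 0.689% in mTBI. How often donor shares were apart at other loci was not counted. The leading donor of chromosome 9, 28529457, held 41.3%, 51.9%, 42.0% and 45.9% in sham and 50.03%, 43.2%, 43.4% and 46.5% in mTBI, with full overlap (exact permutation test, two-sided, p = 0.8286, adjusted p = 0.8286).

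**Figure D5:**
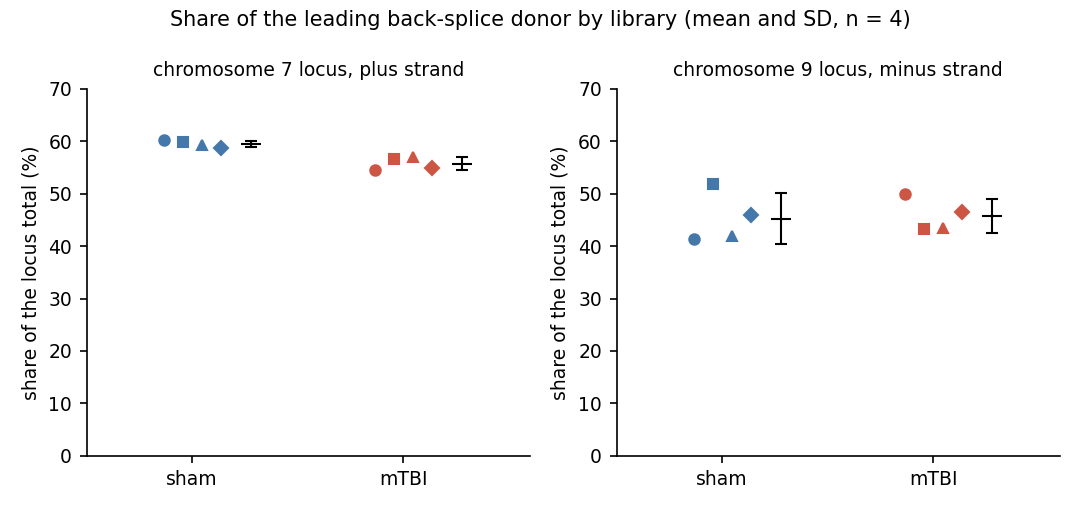
Share of each locus total in percent that came from the circRNAs of its leading back-splice donor, by library, for chromosome 7 (left) and chromosome 9 (right). Points are libraries and the line with its bar is the mean and SD of 4. The chromosome 7 shares are 58.8% to 60.2% in sham and 54.5% to 57.0% in mTBI, while those of chromosome 9 overlap.

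Set beside the 3 other loci with the most circRNAs, both loci had the higher mean summed levels, as a description with no test. On the minus strand, the chromosome 7 locus at 114445792 to 114637525 had 103 circRNAs and averaged 14.1 RPM, and the chromosome 4 locus at 64389860 to 64704848 had 74 and averaged 9.36 RPM. On the plus strand, the chromosome 11 locus at 34600704 to 34738852 had 79 circRNAs at 20.1 RPM, of which its highest circRNA held 66.4%, beside 29.4% at the chromosome 7 locus and 21.7% at the chromosome 9 locus. In mTBI replicates 3 and 4 the chromosome 11 locus, at 24.13 and 23.95 RPM, stood above the plus-strand chromosome 7 locus, at 22.89 and 22.85 RPM.

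Loci whose log2 totals ran most alike over the 8 libraries were looked up among 1056 other loci with a mean of at least 1 RPM. The chromosome 7 total ran most like the minus-strand loci on chromosome 7 from 52310713 to 52449726, on chromosome 18 from 32470315 to 32586609 and on chromosome 5 from 92874668 to 93058793 (Pearson r across 8 libraries 0.968, 0.956 and 0.949, beside a median of 0.347 over all). The chromosome 9 total ran most like the chromosome 20 locus at 5129033 to 5131408 (plus strand) and the minus-strand loci on chromosome 7 from 57294883 to 57434518 and on chromosome 2 from 119330078 to 119478748 (r 0.926, 0.925 and 0.887, beside a median of 0.0647). Between the chromosome 7 and chromosome 9 totals r was 0.461. All totals come from the same libraries, whose summed circRNA level ran from 4966 to 5874 RPM. The best of many loci were picked, so the values are descriptions.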

How the data were processed

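circRNAs were measured in total RNA of 4 sham and 4 mTBI cortex samples. The table the authors deposited is in RPM, with 1 row per circRNA (position and strand) and, per the file headers, 1 column for each of 8 libraries. Trimmomatic 0.36, DESeq and the build Rnor 6.0 appear in the submitters' processing notes. Neither aligner nor circRNA caller is given in the sources used here. Per the labels, ribosomal RNA was depleted, strand was kept, and RNA integrity was at least 7. Each library's smallest listed value was taken as 2 reads, because dividing by 0.5 times that value gave whole numbers for 100% of values (tolerance 0.01 read).

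circRNAs listed in at least 4 libraries, and locus totals likewise, were tested on log2(RPM + 0.0259) with limma 3.58.1 (R 4.3.3, eBayes with trend, two-sided, Benjamini-Hochberg over all features, threshold 0.05). That scale understates the change of low circRNAs. Other values used exact permutation tests (scipy 1.17.1). The labels describe the replicates as separate cortex samples, and p-values measure the spread between these samples. Replicates of a group differed by more than counting noise (chi-square per degree of freedom 2.87 to 3.64).

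The members and lists were chosen with earlier results of these data known. Named for each locus were the 6 circRNAs with the highest mean, any past the threshold, the 3 with the smallest p in each direction, the longest, the shortest, the most variable averaging at least 20 reads, and the 3 leading starts and ends. On simulated reads over 20984 circRNAs, the fit recovered 71% of changes of 2-fold and 94% of those of 4-fold. The changes, 100 of each size, were placed among circRNAs with a mean of 10 reads or more. Every circRNA was given the same relative spread beyond counting, taken from more abundant circRNAs. With 5 calls in the data, the unadjusted p needed to pass is smaller than in the simulation. Of the circRNAs of both loci, 40 reached a mean of 10 reads. The recovered percentages therefore do not tell what could be found at these loci. Alternatives covered the pseudocount, filter, scaling, variance model, replicate number and each library left out. No sequences are printed, since none of Rnor_6.0 was at hand.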

Additional observations from a re-analysis of the deposited data

Results flagged for a closer look

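In 71 groups of 4 libraries with any spread (totals, shares, listed numbers and named circRNAs of both loci), 7 had 1 library far from the other 3, with a gap to the nearest, as a ratio to the group's range, above Dixon's 95% critical value. For independent normal values chance gives about 1 group in 20. A group with 1 library above 0 always meets this. At chromosome 9, mTBI replicate 1 had 6.21 RPM of the circRNA from 28529457 to 28534987, against 4.58 to 4.65 RPM in the others (ratio 0.957). In sham replicate 2 the circRNA from 28529457 to 28552133 stood at 6.63 RPM against 5.53 to 5.59 RPM (ratio 0.942). In sham replicate 1 the circRNA from 28502814 to 28534987 stood at 3.45 RPM against 2.66 to 2.77 RPM (ratio 0.863). These 3 are members of the grid of 2 donors and 2 acceptors.

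The other 4 were listed in 1 library of their group and at 0 in the rest. They were the chromosome 7 circRNA from 78421643 to 78520474 in mTBI replicate 1 (0.0516 RPM) and the chromosome 9 circRNAs from 28502814 to 28545101 in mTBI replicate 4 (0.0260 RPM), from 28529457 to 28548437 in sham replicate 1 (0.0258 RPM) and from 28659251 to 28660092 in mTBI replicate 2 (0.0772 RPM).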

How the results depend on the processing

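No circRNA of either locus passed under any alternative fit, and neither locus total did in 36 alternative fits (smallest limma adjusted p 0.681). Both totals kept a log2 change below 0, from -0.12 to -0.03 at chromosome 7 and from -0.20 to -0.14 at chromosome 9 without each library in turn. With libraries centred on their median over loci it was -0.029 at chromosome 7 and -0.11 at chromosome 9. The number of circRNAs called in the whole table, 5, was 10 with 4 times the pseudocount, 55 with no filter, 0 with a mean of at least 10 reads (limma, 295 at an unadjusted p under 0.05), 9 after median centring, 1 with no variance trend, 23 with robust shrinkage, 3 with limma voom, 0 with the replicate block (limma, 889 at an unadjusted p under 0.05) and 2 to 9 without each library (9 without sham replicate 3, 3 without mTBI replicate 1 and 2 without mTBI replicate 3). With the replicate number as a block the log2 change was -0.08 at chromosome 7 (limma adjusted p = 0.950) and -0.17 at chromosome 9 (0.923), and no call on either locus changed. Same-numbered libraries did not deviate together (r from -0.012 to 0.027), so the numbers were not taken as pairs. Some differences changed sign. The difference in listed circRNAs, 2 at chromosome 7 and -5.5 at chromosome 9, was -1.25 and 1.25 when only values above 4 reads counted. At chromosome 7 it was -0.25 to 3.08 without each library. At chromosome 9 the share of the highest circRNA differed by -0.613 to 0.872 and that of the leading donor by -0.892 to 2.74 percentage points without each library. The log2 change of the circRNA from 28502814 to 28548437 was -0.022 with centred libraries and -0.12 to 0.086 without each library, that of the circRNA from 28502814 to 28595563 was -0.18 to 0.057, and that of the circRNA from 28575571 to 28598974 was -0.27 to 0.11. The cause was not tested for any of these. The planned edgeR fit and diffSplice without a variance trend were not run. circRNAs below about 10 reads are limited by depth, since 1 read more or less moves them by a large share.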
